A study of Mus musculus with 6 samples.

Results

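The genes of 6 matricellular proteins (Tnc, Postn, Thbs1, Thbs2, Spp1 and Sparc), of fibronectin (Fn1) and of 3 small leucine-rich proteoglycans (Dcn, Lum and Bgn) were followed in mouse pancreatic stellate cells (PSCs) cultured at 21% or 1% O2. The 10 genes were taken by name as noncollagenous matrix genes, out of 55426 features in the expression table, and all 10 were among the 16207 genes with enough counts to be tested. PSCs are the resident fibroblast precursors of the pancreas. They were primary cells of wild-type C57BL/6 mice aged 8–12 weeks, used at passages 2–4 and held in Matrigel in a transwell insert. Organoids of mT3, a pancreatic ductal adenocarcinoma (PDAC) line derived from a KPC mouse tumor, were in the compartment beneath them. Every sample of either condition had this coculture, so PSCs without tumor cells are not part of the comparison. After 48 h, RNA was sequenced from 3 samples at 21% O2 (normoxia) and 3 at 1% O2 (hypoxia). The sources used here do not say whether the 3 samples of a condition came from separate PSC lines or cultures, so p-values measure the spread between these samples, which may be technical.

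Matricellular proteins are secreted into the matrix but serve mainly to tune how cells attach, migrate and receive growth factor signals, rather than to bear load. Fibronectin is an adhesive glycoprotein that cells assemble into fibrils through integrins, and the small leucine-rich proteoglycans bind collagen fibrils, set their spacing and hold growth factors. In PDAC, fibroblasts are a main source of this stroma. The measurement is of mRNA and not of protein or of deposited matrix, and in bulk RNA fewer cells of a type and less RNA per cell cannot be told apart.

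Libraries held 24749601 to 25914892 counts in normoxia and 25847719 to 31925054 in hypoxia, so 3 counts correspond to between 0.0943 and 0.122 CPM (counts scaled to libraries of a common size by TMM), far below any of the 10 genes. This limit covers counting error only. All 10 genes of a hypoxia response list were higher in hypoxia, with a median log2 fold change of 2.01. Of 10 fibroblast and stellate markers, 9 were tested and their summed level spanned 26200 to 33500 CPM in normoxia and 27400 to 33100 CPM in hypoxia. The collagen genes Col1a1, Col1a2 and Col3a1 made up most of that sum and none of them was called. Col1a2 was nevertheless lower in every hypoxic library than in any normoxic one (log2 fold change -0.46, edgeR adjusted p = 0.00476), by less than 1.5-fold. Pdgfra (log2 fold change 0.81) and Pdpn (0.99) were called higher and Thy1 (-1.005) lower. Gfap, a marker of quiescent stellate cells, was near 0 in normoxia and at 0 in hypoxia. Of 6 pericyte and muscle markers, all were tested, 1 was higher (Rgs5) and 3 were lower (Acta2, Myh11 and Mcam). The single markers of these lists were chosen for mention after their values were seen. Of 15 macrophage and immune markers, 14 were tested, 8 were lower in hypoxia and none was higher. Their summed level was 1070, 1900 and 1490 CPM in normoxic replicates 1 to 3 and 553, 1010 and 679 CPM in hypoxic replicates 1 to 3. Of 10 epithelial markers, 4 were tested, Krt19 and Sox9 were higher in hypoxia, and the list summed to 32.3 to 34.8 CPM in normoxia against 86.1 to 90.6 CPM in hypoxia. The defining epithelial markers Epcam and Cdh1 were at or below the 3-count limit in all libraries.

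Promoter sequences were available for 6 of the 10 genes in the RefSeq table used (GRCm38.p6), and those of Tnc, Postn and Bgn are shown. Tnc is the only one of the 3 genes called below (at a fold change beyond 1.5 and an adjusted p under 0.05) that has an entry, Postn is the matricellular gene compared with it below, and Bgn is the only proteoglycan with an entry. Entries for Spp1, Thbs2 and Sparc are not printed, and Fn1, Thbs1, Dcn and Lum had none. Each sequence runs 5′ to 3′ on the strand of its gene from 250 bases before the RefSeq start. Capitals mark letters matching ACGTG or GCGTG (the core letters bound by hypoxia-inducible factors), TGANTCA (the AP-1 letters) or TATAAA, searched on both strands.
Tnc, chr4:64046966-64047265, minus strand: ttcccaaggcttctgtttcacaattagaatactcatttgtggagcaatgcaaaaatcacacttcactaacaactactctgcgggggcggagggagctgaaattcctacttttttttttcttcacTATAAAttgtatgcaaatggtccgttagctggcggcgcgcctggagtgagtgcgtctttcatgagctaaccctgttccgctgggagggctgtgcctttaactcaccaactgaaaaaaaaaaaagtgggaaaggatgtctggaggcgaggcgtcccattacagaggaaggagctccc
Postn, chr3:54360857-54361156, plus strand: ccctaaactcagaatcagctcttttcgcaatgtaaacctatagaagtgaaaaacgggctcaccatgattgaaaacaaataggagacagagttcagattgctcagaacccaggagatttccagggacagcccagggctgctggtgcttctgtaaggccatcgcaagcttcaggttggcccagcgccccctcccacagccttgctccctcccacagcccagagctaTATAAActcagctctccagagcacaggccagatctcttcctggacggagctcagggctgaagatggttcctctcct
Bgn, chrX:73483351-73483650, plus strand: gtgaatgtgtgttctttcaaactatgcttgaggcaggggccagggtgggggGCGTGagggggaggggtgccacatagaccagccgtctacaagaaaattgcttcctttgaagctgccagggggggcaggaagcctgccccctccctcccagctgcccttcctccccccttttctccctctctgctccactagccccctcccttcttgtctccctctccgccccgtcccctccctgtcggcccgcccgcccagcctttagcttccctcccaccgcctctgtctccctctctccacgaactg
The Tnc window held TATAAA at -126 from the start, the Postn window TATAAA at -26, and the Bgn window GCGTG at -199. The letters GGGCGG, also searched and left in lower case, matched at -167 in Tnc and, on the reverse strand, at -34, -10 and -6 in Bgn, where the last 2 matches share letters. Among 32851 RefSeq promoter windows of the same length, 43.8% held ACGTG or GCGTG, 13.6% held TATAAA, 35.7% held GGGCGG and 7.81% held TGANTCA, which matched in none of the 3. Another RefSeq start of Tnc, 79 bases downstream, had a window with CACGC, the reverse complement of GCGTG, at 21 after its start. Another RefSeq start of Postn, at 54359267, had a window that held none of these letters. These matches describe letters and not bound sites.

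The matrix genes moved in both directions. A gene was called at a fold change beyond 1.5 and an adjusted p under 0.05 in edgeR's quasi-likelihood test with Benjamini-Hochberg adjustment over all tested genes. By this rule Tnc and Fn1 rose, Lum fell, and the other 7 genes were not called. Over all tested genes 34.2% were called, 18.9% higher and 15.3% lower, so 3 of 10 was close to the background. An adjusted p under 0.05, whatever the fold, was reached by 7 of the 10, against 62.7% of all tested genes. Normoxic and hypoxic libraries were fully apart for 7 of the 10, against 68.9% of all tested genes. Of these 7, 4 were higher in hypoxia (34.9% of all tested genes) and 3 lower (34% of all tested genes).

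**Figure D1:**
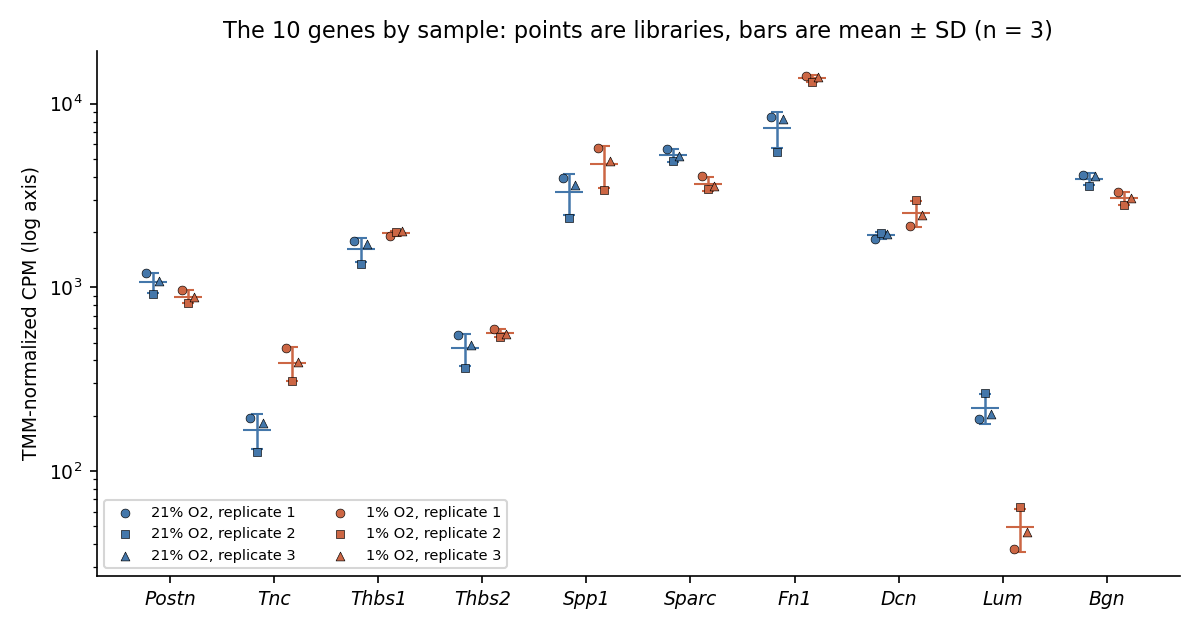
TMM-normalized CPM (log axis) of the 10 genes in each library, with blue symbols for 21% O2, orange symbols for 1% O2, a shape for each replicate number, and bars for mean ± SD (n = 3). Lum lies apart and lower in hypoxia, Tnc and Fn1 lie apart and higher, and the libraries of Postn, Thbs2 and Spp1 overlap between conditions.

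Tnc encodes tenascin-C, a large hexameric glycoprotein of wound and tumor stroma that weakens cell attachment to fibronectin. It lies at chr4:63959785-64047015 on the minus strand (GRCm38, ENSMUSG00000028364). It was at 193.9, 127 and 182.4 CPM in normoxia and at 468.1, 306.8 and 392.5 CPM in hypoxia. Each hypoxic library was above each normoxic one. The mean went from 167.8 ± 35.8 to 389.1 ± 80.7 CPM (SD, n = 3), a 2.32-fold rise (log2 fold change 1.21, SE 0.179, 95% interval 0.809 to 1.62, edgeR adjusted p = 0.000332). With each library left out in turn, the log2 fold change stayed between 1.04 and 1.36. An antisense transcript, 8030451A03Rik, overlaps Tnc but had between 0 and 6 counts per library.

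Postn encodes periostin, which links tenascin-C and collagen in fibroblast matrix, and lies at chr3:54361109-54391037 on the plus strand (ENSMUSG00000027750). It was at 1192, 919.2 and 1078 CPM in normoxia and at 966.9, 819.3 and 884.6 CPM in hypoxia. The conditions overlapped, since the highest hypoxic library exceeded the lowest normoxic one. The means were 1063 ± 137 and 890.3 ± 73.94 CPM (SD, n = 3), with a log2 fold change of -0.26 (SE 0.101, 95% interval -0.485 to -0.027) that missed the threshold (edgeR adjusted p = 0.0512). The adjusted p moved between 0.00165 and 0.163 over the alternative fits, in none of which the fold reached 1.5. Without normoxic replicate 1 the log2 fold change was -0.17.

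The count of Postn over that of Tnc separated the conditions without overlap. It was 6.15, 7.24 and 5.91 in normoxia and 2.07, 2.67 and 2.25 in hypoxia. The mean ratio went from 6.43 ± 0.71 to 2.33 ± 0.31 (SD, n = 3). With 3 samples a condition, the exact two-sided permutation test cannot give less than 0.1, and it gave p = 0.1 (0.125 when adjusted over 5 ratios).

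Thbs1 and Thbs2 encode thrombospondin-1 and thrombospondin-2, related trimeric proteins that restrain angiogenesis, and thrombospondin-1 can also activate latent TGFβ. Thbs1, at chr2:118111876-118127133 on the plus strand (ENSMUSG00000040152), was at 1797, 1332 and 1717 CPM in normoxia and at 1893, 2003 and 2016 CPM in hypoxia. All hypoxic libraries lay above the normoxic ones, by a mean of 1970 ± 67.71 against 1616 ± 248.8 CPM (SD, n = 3). The 1.22-fold difference passed the adjusted p (log2 fold change 0.29, SE 0.107, edgeR adjusted p = 0.0414) but was short of 1.5-fold. With each library left out in turn the adjusted p ran from 0.0192 to 0.109, and it stayed under 0.05 only without normoxic replicate 1. Without normoxic replicate 2, the lowest, the log2 fold change was 0.16.

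Thbs2, at chr17:14665500-14694235 on the minus strand (ENSMUSG00000023885), was at 546.7, 362.3 and 487.1 CPM in normoxia and at 593.1, 537.1 and 557.9 CPM in hypoxia. The conditions overlapped through normoxic replicate 1. The log2 fold change of 0.27 (SE 0.129, 95% interval -0.018 to 0.566) missed the threshold (edgeR adjusted p = 0.0919), and without normoxic replicate 2 it was 0.12. The ratio of Thbs1 to Thbs2 counts was 3.29, 3.68 and 3.53 in normoxia and 3.19, 3.73 and 3.61 in hypoxia. These values overlapped fully, and the mean ratio was 3.5 ± 0.2 against 3.51 ± 0.28 (SD, n = 3, exact permutation p = 1), although the levels of both genes varied between libraries. A lincRNA antisense to Thbs1, Gm29233, had 0 counts in all 6 libraries.

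Spp1 encodes osteopontin, a phosphorylated integrin and CD44 ligand made by many cell types, including macrophages and tumor epithelium. The gene lies at chr5:104435118-104441050 on the plus strand (ENSMUSG00000029304). It was at 3939, 2381 and 3595 CPM in normoxia and at 5753, 3391 and 4867 CPM in hypoxia. The lowest hypoxic library, replicate 2, was below 2 of the 3 normoxic ones. The means were 3305 ± 818.4 and 4670 ± 1193 CPM (SD, n = 3), a 1.41-fold difference (log2 fold change 0.50, SE 0.216, 95% interval 0.01 to 0.987) that missed the threshold (edgeR adjusted p = 0.0703). Spp1 was called higher when normoxic replicate 1 was left out (log2 fold change 0.64, edgeR adjusted p = 0.0415) or hypoxic replicate 2 was left out (0.68, edgeR adjusted p = 0.0145). Without normoxic replicate 2 it was 0.31, and without hypoxic replicate 1 it was 0.32, neither of them called. A transcript of uncertain coding status on the same strand, Gm42793, overlaps Spp1 and had 61 to 94 counts in normoxia and 329 to 728 in hypoxia, against at least 62737 counts of Spp1 in any library.

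Within each condition Spp1 was lowest in the library with the most macrophage marker RNA and highest in the one with the least. At 21% O2, replicate 2 had 1900 CPM of summed macrophage and immune markers and 2381 CPM of Spp1, whereas replicate 1 had 1070 and 3939 CPM. At 1% O2, the same replicate numbers had 1010 and 3391 CPM against 553 and 5753 CPM. The most abundant marker was Lyz2, at 899.9 ± 256 CPM in normoxia and 413.1 ± 119.5 CPM in hypoxia (SD, n = 3). The markers did not all fall, since 8 of the 14 tested were called lower and 6 were not called. Among the 6 was Itgam, at 39.18 CPM in normoxia and 39.03 CPM in hypoxia. Among epithelial markers, Krt19 went from 0.715 to 22.1 CPM (log2 fold change 4.94) and Sox9 from 29.2 to 61.2 CPM (log2 fold change 1.07), while Epcam had 1 count in 1 normoxic library and 0 in the other 5. The part of these markers' cells in the Spp1 level was not tested.

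**Figure D2:**
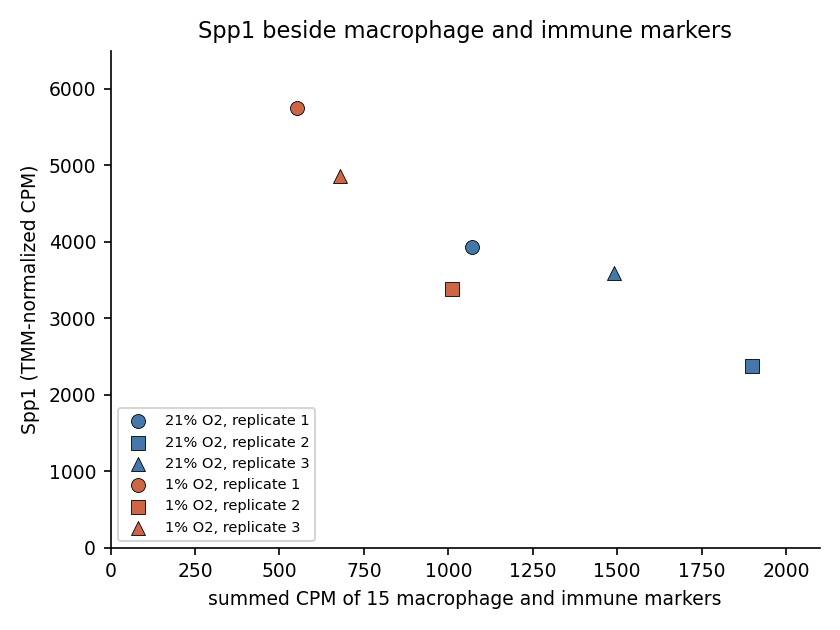
Spp1 level (vertical axis, TMM-normalized CPM) against the summed CPM of 15 macrophage and immune markers (horizontal axis) in the 6 libraries, with blue for 21% O2, orange for 1% O2 and a shape for each replicate number. In each condition replicate 2 (square) has the most marker RNA and the least Spp1.

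Sparc encodes osteonectin, a collagen-binding glycoprotein that assists procollagen handling, and lies at chr11:55394500-55423183 on the minus strand (ENSMUSG00000018593). It was at 5686, 4854 and 5158 CPM in normoxia and at 4015, 3427 and 3566 CPM in hypoxia. All 3 hypoxic libraries were below all 3 normoxic ones. The means, 5233 ± 421.3 and 3669 ± 307 CPM (SD, n = 3), differed 1.43-fold (log2 fold change -0.51, SE 0.091, 95% interval -0.717 to -0.307, edgeR adjusted p = 0.001), which passed the adjusted p and was short of the fold threshold. Left-out libraries moved the log2 fold change only between -0.58 and -0.45. By mean CPM, which does not allow for length, Sparc was the 7th most abundant gene of the table in normoxia and the 12th in hypoxia.

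Fn1 encodes fibronectin and lies at chr1:71585520-71653200 on the minus strand (ENSMUSG00000026193). It was at 8458, 5470 and 8257 CPM in normoxia and at 14230, 13100 and 14060 CPM in hypoxia. The conditions were well apart, and the hypoxic libraries differed little among themselves. The mean rose 1.87-fold, from 7395 ± 1670 to 13800 ± 609.3 CPM (SD, n = 3; log2 fold change 0.90, SE 0.153, 95% interval 0.553 to 1.25, edgeR adjusted p = 0.000798). Without normoxic replicate 2, the lowest library, the log2 fold change was 0.72 and Fn1 was still called. Fn1 was the 5th gene of the table by mean CPM in normoxia and the 1st in hypoxia, where it took 1.37 ± 0.0547% of all counts against 0.742 ± 0.162% in normoxia (SD, n = 3). Apol7d, antisense to Fn1, had 0 to 4 counts per library.

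Lum encodes lumican, a keratan sulfate proteoglycan that limits collagen fibril thickness, and lies at chr10:97565128-97572703 on the plus strand (ENSMUSG00000036446). It was at 192.4, 266.4 and 203.7 CPM in normoxia and at 37.7, 63.12 and 46.51 CPM in hypoxia. No hypoxic library came near a normoxic one. The mean fell 4.49-fold, from 220.8 ± 39.86 to 49.11 ± 12.91 CPM (SD, n = 3; log2 fold change -2.17, SE 0.185, 95% interval -2.58 to -1.75, edgeR adjusted p = 1.18e-05). With libraries left out in turn it stayed between -2.39 and -2.01. Among all tested genes, 95.1% had a smaller log2 change in size than Lum, 85.1% a smaller one than Tnc and 77.1% a smaller one than Fn1. At least 960 counts stood behind each value of Lum.

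Dcn encodes decorin, a dermatan or chondroitin sulfate proteoglycan that binds collagen and TGFβ. It lies on the same strand as Lum at chr10:97479609-97518143 (ENSMUSG00000019929), and its end is 46984 bases before the start of Lum. It was at 1835, 1976 and 1941 CPM in normoxia and at 2167, 2990 and 2474 CPM in hypoxia. All hypoxic libraries were above all normoxic ones, in the direction opposite to Lum. The means, 1917 ± 73.54 and 2543 ± 415.9 CPM (SD, n = 3), differed 1.33-fold (log2 fold change 0.41, SE 0.11, 95% interval 0.159 to 0.656, edgeR adjusted p = 0.00985), short of the fold threshold. The count of Dcn over that of Lum was 9.54, 7.42 and 9.53 in normoxia and 57.5, 47.4 and 53.2 in hypoxia. The mean ratio went from 8.83 ± 1.22 to 52.7 ± 5.07 (SD, n = 3, exact permutation p = 0.1, the smallest possible). With Dcn apart upward and Lum downward, this separation and its p were fixed by the single genes. The other 2 proteoglycan genes of this cluster on chromosome 10, Kera and Epyc, had no count in any library and 1 count in 1 normoxic library.

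Bgn encodes biglycan, a close relative of decorin that can also act as a danger signal on Toll-like receptors, and lies at chrX:73483602-73495933 on the plus strand (ENSMUSG00000031375). It was at 4111, 3551 and 4031 CPM in normoxia and at 3298, 2805 and 3075 CPM in hypoxia. The conditions did not overlap, and hypoxia was lower. The means, 3898 ± 302.8 and 3059 ± 246.7 CPM (SD, n = 3), differed 1.27-fold (log2 fold change -0.35, SE 0.089, 95% interval -0.55 to -0.149, edgeR adjusted p = 0.00721), short of the fold threshold. Dcn was thus higher and Bgn lower in hypoxia, both by less than 1.5-fold. The Dcn count over that of Bgn was 0.446, 0.557 and 0.481 in normoxia and 0.657, 1.07 and 0.804 in hypoxia, without overlap (exact permutation p = 0.1, 0.125 when adjusted over 5 ratios). Dcn was apart upward and Bgn downward, so this separation and its p follow from the single genes and add no evidence. The Bgn count over that of Lum went from 18.2 ± 4.26 to 66 ± 21.5 (SD, n = 3, exact permutation p = 0.1).

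The order of the libraries within a condition was shared by most of the 10 genes. In both conditions replicate 1 was highest and replicate 2 lowest for 7 genes, namely Postn, Tnc, Thbs2, Spp1, Sparc, Fn1 and Bgn. Dcn and Lum had the reverse order, with replicate 2 highest and replicate 1 lowest in both conditions. Thbs1 had the common order in normoxia and replicate 3 highest in hypoxia. The summed macrophage and immune markers were also highest in replicate 2 and lowest in replicate 1 of each condition, and the part of their cells in these orders was not tested. The coefficient of variation in normoxia and hypoxia was 22.6% and 4.42% for Fn1, 15.4% and 3.44% for Thbs1, 24.8% and 25.5% for Spp1, and 3.84% and 16.4% for Dcn.

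**Figure D3:**
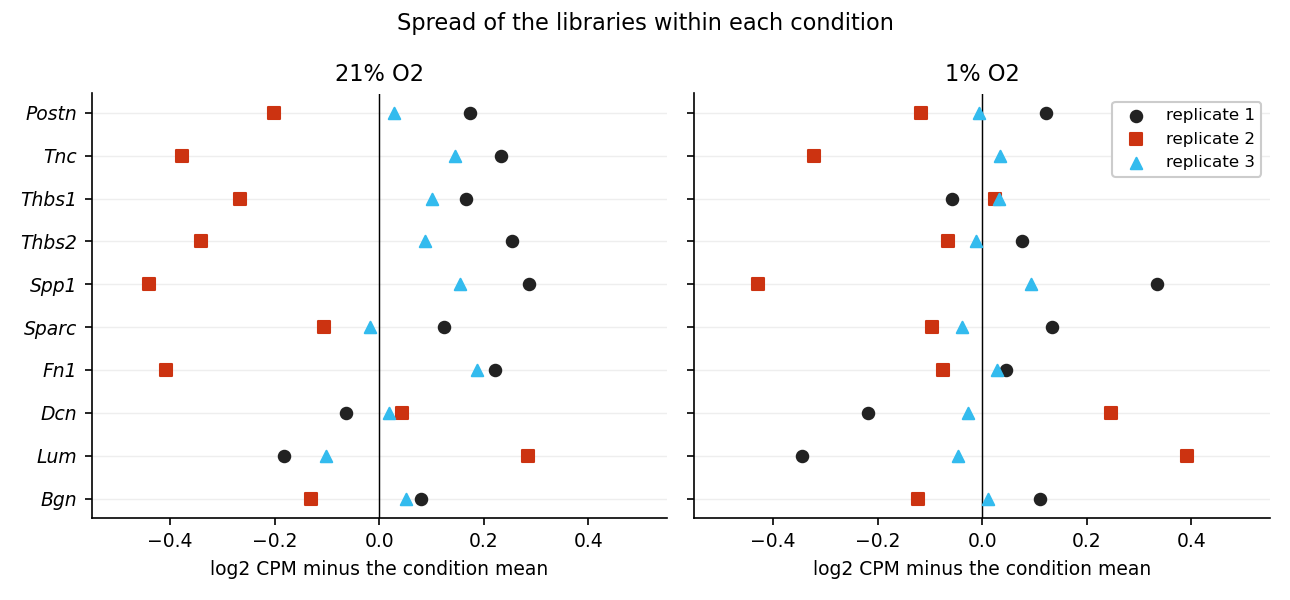
Deviation of each library from its condition mean (horizontal axis, log2 CPM) for the 10 genes, with 21% O2 on the left, 1% O2 on the right and a symbol for each replicate number. Replicate 2 is lowest in both conditions for 7 genes and highest for Dcn and Lum.

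Levels of different genes were compared per kilobase of annotated exon. In normoxia the mean levels on this scale ran from Spp1 (2006 ± 496.6 CPM per kilobase) through Sparc (1381 ± 111.2), Bgn (639.1 ± 49.65), Fn1 (632.9 ± 142.9), Dcn (328.4 ± 12.6), Thbs1 (266 ± 40.96), Postn (122.2 ± 15.75), Lum (90.21 ± 16.28) and Thbs2 (66.45 ± 13.44) to Tnc (21.59 ± 4.607; SD, n = 3). The ranges of Spp1 and Sparc overlapped between libraries, but Spp1 was above Sparc within each normoxic library on this scale. Bgn and Fn1, and Postn and Lum, overlapped and changed order between libraries, so those neighbours had no clear order. In hypoxia Spp1 was at 2834 ± 724.2, Fn1 at 1181 ± 52.15, Sparc at 968.7 ± 81.05, Bgn at 501.6 ± 40.44 and Dcn at 435.7 ± 71.23 CPM per kilobase (SD, n = 3). Lum, at 20.06 ± 5.273, took the lowest place from Tnc, at 50.07 ± 10.38. Only Bgn and Dcn overlapped as neighbours in hypoxia. The order rests on the length used, since with the longest coding transcript of each gene, an alternative chosen after the data were seen, only 3 of the 10 genes kept their rank in both conditions. With that length the normoxic mean was 2275 CPM per kilobase for Sparc and 2193 for Spp1.

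**Figure D4:**
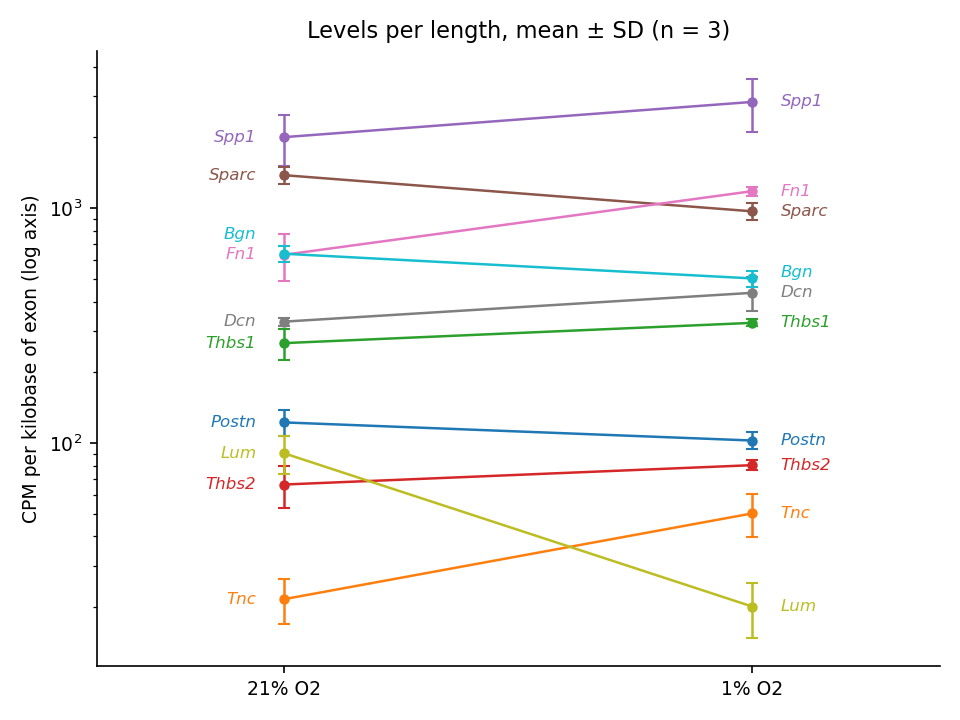
Mean ± SD (n = 3) of CPM per kilobase of exon (log axis) for the 10 genes at 21% O2 and 1% O2, joined by a line for each gene. By mean, Fn1 passes Sparc, and Lum goes from the 8th to the 10th place. Fn1 and Bgn overlap at 21% O2, and Fn1 is above Bgn at 1% O2.

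The 10 genes together took 2.8%, 2.16% and 2.65% of all counts in the normoxic libraries and 3.29%, 2.94% and 3.18% in the hypoxic ones. The hypoxic libraries were all above the normoxic ones. The 6 matricellular genes overlapped between conditions, at 1.34%, 1.01% and 1.22% in normoxia and 1.35%, 1.05% and 1.22% in hypoxia, whereas Fn1 alone was apart (0.556% to 0.849% against 1.31% to 1.4%). The 3 proteoglycan genes summed to between 0.589% and 0.616% in normoxia and between 0.542% and 0.584% in hypoxia. These shares of library totals did not overlap by a small margin. On the TMM scale the sums did overlap, at 5790 to 6180 CPM in normoxia and 5500 to 5860 CPM in hypoxia. Among the 500 most abundant tested genes, which include 8 of the 10, 32.2% were called and the median log2 fold change was -0.03.

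Genes that share function or structure with these 10 were described from 5 lists of 93 genes. Of these, 81 were tested, 12 were higher and 20 were lower, which is 39.5% called against 34.2% of all tested genes. The median log2 fold change was -0.05, beside 0.00 over all tested genes. Each list is given by its counts, and its named genes are those of at least 1 CPM with the largest changes among called genes.

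Of 23 further matricellular genes, 16 were tested, 2 were higher and 5 lower, with a median log2 fold change of -0.09. With each library left out in turn the count of lower genes was 3 to 5, and it was 3 without normoxic replicate 3. Tgfbi, a TGFβ-induced adhesive protein related to periostin, fell from 88.82 ± 5.538 to 27.26 ± 2.357 CPM (SD, n = 3; log2 fold change -1.70, edgeR adjusted p = 2.89e-07). Smoc1, a SPARC relative, fell from 27.06 ± 11.54 to 10.75 ± 0.4029 CPM (log2 fold change -1.33), and Tnr, the neural tenascin, fell from 1.515 to 0.597 CPM (-1.33). Spock2, a testican of the SPARC family, rose from 2.217 to 6.261 CPM (log2 fold change 1.5). Ccn5, of the CCN family, was called higher (60.55 ± 20.14 to 98.28 ± 16.42 CPM, log2 fold change 0.70, edgeR adjusted p = 0.0225), but the call was lost without normoxic replicate 2 (0.44), without hypoxic replicate 1 (0.60) and without hypoxic replicate 3 (0.66), and in DESeq2's test (adjusted p = 0.0577).

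Of 15 further genes with small leucine-rich repeats, 10 were tested, 4 were higher and 2 lower, with a median log2 fold change of 0.47. Tsku, a secreted modulator of growth factor signals, rose from 32.75 ± 2.498 to 108.9 ± 5.598 CPM (SD, n = 3; log2 fold change 1.73), and Podnl1 rose from 2.636 to 9.402 CPM (1.83). Fmod, which encodes the lumican relative fibromodulin, fell from 22.32 ± 1.003 to 13.59 ± 1.141 CPM (log2 fold change -0.71), and Ecm2 fell from 3.941 to 1.835 CPM (-1.11). Podn (50.26 ± 4.73 to 116 ± 11.41 CPM, log2 fold change 1.21) was also called higher and was chosen for mention after its values were seen. The log2 fold change of Lum was -2.17 beside these values.

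Of 16 genes of fibulins and elastic fibers, all were tested, 2 were higher and 7 lower, with a median log2 fold change of -0.35. Eln, which encodes elastin, fell from 154.3 ± 21.31 to 33.23 ± 1.503 CPM (SD, n = 3; log2 fold change -2.22, edgeR adjusted p = 2.8e-07). The microfibril genes Mfap2 (70.93 to 31.16 CPM, log2 fold change -1.19) and Fbn2 (13.5 to 6.501 CPM, -1.05) also fell. Mfap5, another microfibril gene, rose from 88.08 ± 16.89 to 143.9 ± 3.75 CPM (log2 fold change 0.71), short of 1.5-fold without normoxic replicate 2 (0.55). Vtn, which encodes vitronectin, was called higher at a low level (2.585 to 5.453 CPM, log2 fold change 1.08), a call lost without hypoxic replicate 2 (0.80, edgeR adjusted p = 0.0725).

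Of 16 receptors of these proteins, all were tested, 3 were higher and 4 lower, with a median log2 fold change of 0.03. Itgb3, a partner of the αv integrin that binds osteopontin and fibronectin, rose from 15.01 ± 2.17 to 45.61 ± 2.62 CPM (SD, n = 3; log2 fold change 1.60). Itgb8, another αv partner, rose from 2.066 to 10.69 CPM (2.37), and Sdc4, a syndecan that binds the heparin sites of fibronectin, rose from 170.2 ± 8.898 to 464.8 ± 14.83 CPM (1.45). Itga5, the fibronectin receptor α chain, was at 295.5 ± 26.7 and 387.7 ± 28.46 CPM (log2 fold change 0.39, edgeR adjusted p = 0.00253), short of the fold threshold. Itga5 was chosen for mention after its values were seen. Itga4 fell from 2.795 to 0.696 CPM (log2 fold change -1.99), and Itga8 fell from 18.64 ± 3.586 to 9.812 ± 4.104 CPM (-0.94). Cd36, a thrombospondin receptor also found on macrophages and fat cells, fell from 91.02 ± 50.56 to 14.53 ± 5.406 CPM (log2 fold change -2.64). Like the macrophage marker sum it was highest in replicate 2 of each condition, at 149.4 and 20.55 CPM, and the part of macrophages in it was not tested.

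Of 23 genes that build the chondroitin and dermatan sulfate chains carried by decorin and biglycan, all were tested, 1 was higher and 2 lower, with a median log2 fold change of -0.01. Without normoxic replicate 1, and with a GC offset and replicate block, the count of higher genes was 2. The 13% called compares with 34.2% of all tested genes. Ugdh, which makes the UDP-glucuronate used in the chains, rose from 179.3 ± 1.807 to 388.7 ± 20.43 CPM (SD, n = 3; log2 fold change 1.12). Chsy1, a chain polymerase, fell from 122.4 ± 2.983 to 62.87 ± 5.385 CPM (-0.96), and Fam20b, a kinase acting on the linker sugar, fell from 67.9 ± 2.113 to 44.31 ± 1.386 CPM (-0.62).

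**Figure D5:**
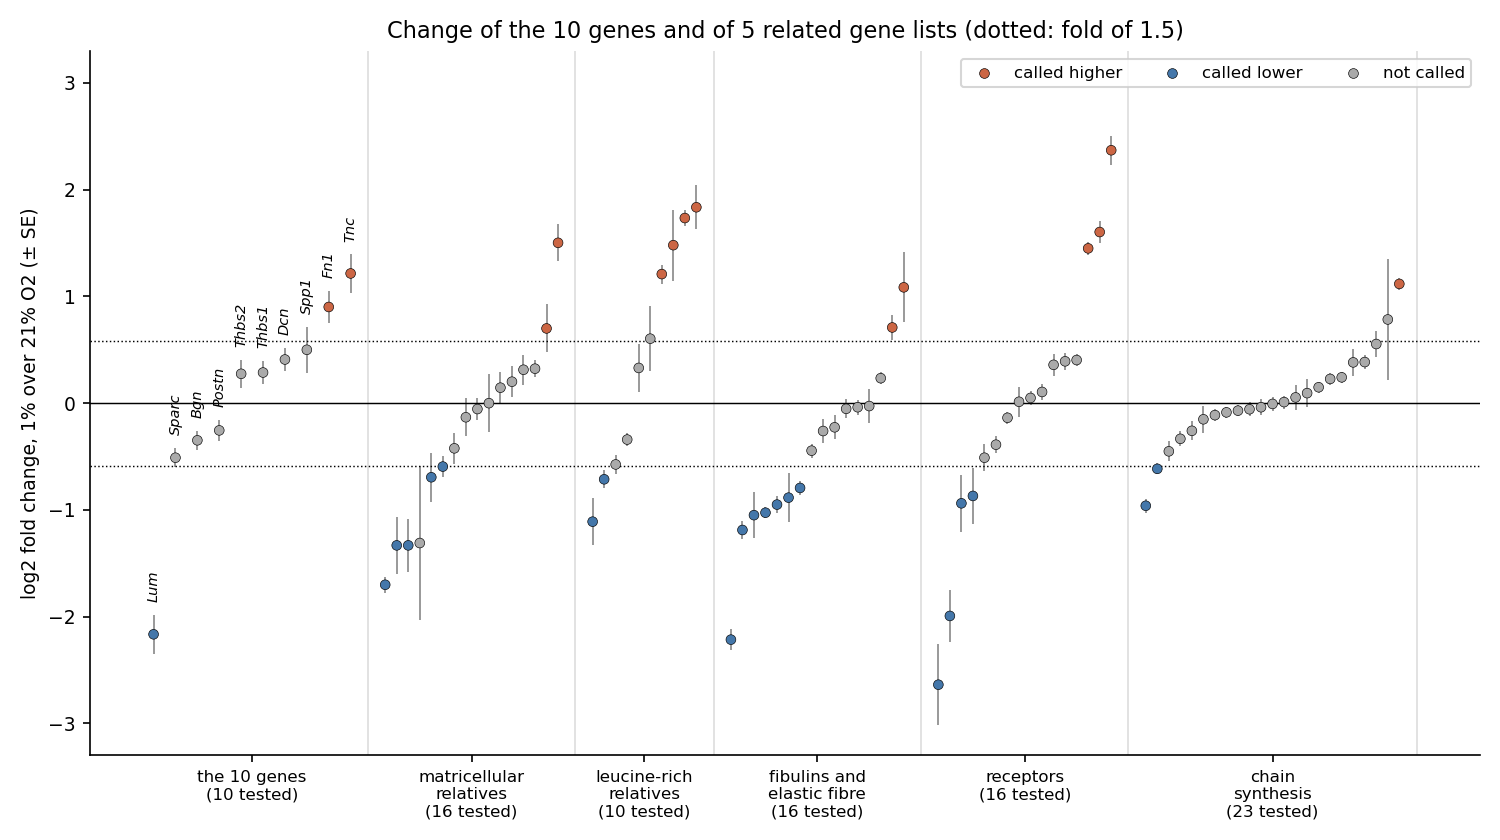
Log2 fold change ± SE (vertical axis, 1% over 21% O2) of the 10 genes and of the tested genes of 5 related lists, each point a gene, sorted within its list; orange points were called higher, blue points lower and grey points not called, and dotted lines mark a fold of 1.5. Lum lies far below the other 9 genes, and chain synthesis genes lie mostly between the dotted lines.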

How the data were processed

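RNA of PSCs cocultured with mT3 PDAC organoids was sequenced in 3 samples at 21% O2 and 3 at 1% O2, as the labels give them. The authors made poly(A) libraries, trimmed adapters with Cutadapt, mapped reads to GRCm38 with STAR (v2.6.1b) and estimated gene counts with RSEM (v1.3.1). The authors deposited expected counts (RSEM's estimates per gene), not normalized between samples, for 55426 features, and 0 of them had a fraction. RSEM shares reads that fit several genes by estimate, and whether counting used strand is not given in the sources used here, so antisense and overlapping genes were checked. Names and positions came from GENCODE M21 (GRCm38), which held 55240 of the identifiers.

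Expected counts were analysed in edgeR (v4.0.16; limma v3.58.1; R v4.3.3) with filterByExpr, TMM normalization, a condition term and its quasi-likelihood test, adjusted by Benjamini-Hochberg over 16207 genes. A call needed a linear fold beyond 1.5 and an adjusted p under 0.05. SE is the log2 fold change divided by the square root of F, and intervals of 95% use the moderated degrees of freedom. CPM are counts over the TMM-scaled library size. No pair of replicates agreed within counting noise (chi-square per degree of freedom 6.05 to 24.3). Ratios of counts were compared by exact two-sided permutation. The fits were tested on simulated data.

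The 10 genes and all lists were chosen with earlier results of these data known. From each list of related genes, those called, at a mean of at least 1 CPM and among the 3 highest or 3 lowest log2 fold changes were named, and other genes are said to be chosen after their values were seen. Macrophage and epithelial markers were named where their level is set beside Spp1, and the other single markers were chosen after their values were seen. Alternatives were other normalizations, filters and thresholds, DESeq2 (v1.42.0), limma-voom, a replicate block, GC and length offsets, and each library left out. Promoters came from RefSeq (GRCm38.p6). The paper's qRT-PCR, flow cytometry and single-cell data were not analysed here.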

Additional observations from a re-analysis of the deposited data

How the results depend on the processing

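With an adjusted p under 0.05 and no fold threshold, 10168 genes were called in place of 5547, 7 of the 10 matrix genes in place of 3 (4 higher and 3 lower), and 52 of the 81 related genes in place of 32. At a fold of 2 these counts were 3156 genes, 2 matrix genes (1 higher, Tnc, and 1 lower, Lum) and 20 related genes. With each library left out, 5226 to 5662 genes, 3 to 4 matrix genes and 29 to 33 related genes were called, and the log2 fold change of Spp1 ran from 0.305 to 0.682, which made it called in 2 of the 6 fits. The order of mean levels by exon length, in which some neighbours overlapped, was the reference for ranks. With the longest coding transcript 3 of the 10 genes kept their rank in both conditions. With each library left out in turn, 8 to 10 kept it. Tnc, Fn1 and Lum kept their calls in all 20 alternative fits, and none of the 10 genes changed direction in any. Without a low-count filter 6270 of 27207 genes were called, and with at least 1 CPM in 3 samples 4828 of 14459. The adjusted p of Postn (0.00165 to 0.163), Thbs1 (0.0043 to 0.177), Thbs2 (0.00424 to 0.231) and Spp1 (2.18e-11 in DESeq2 with the replicate block to 0.245 without hypoxic replicate 1) lay on either side of 0.05 across fits, and that of Sparc, Dcn and Bgn stayed below it, at most 0.00654, 0.0328 and 0.0299. At these depths counting error was small for all 10 genes, and the 3 samples a condition set the precision.

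The conditions share replicate numbers, but nothing in the sources used here says that equal numbers were paired. Same-numbered samples correlated in their deviations at 0.142, 0.139 and 0.0378, and each sample correlated best with its own number, which is a hint from the data. With a replicate block edgeR called 5572 genes, of which 5467 were among the 5547, and DESeq2 called 5083 against 5305 without the block. With the block in edgeR Tnc, Fn1 and Lum were again the called matrix genes, and the adjusted p was 0.00474 for Postn (log2 fold change -0.251), 0.0178 for Thbs2 (0.293) and 0.000119 for Spp1 (0.498), none of them at a fold of 1.5. With a GC offset and the block 5632 genes were called.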
